A study of Mus musculus with 10 samples.

Results

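Htra1, Ecm1 and 6 other genes of matricellular proteins were followed through macrophages sorted from mouse mammary tumours. The members are the genes with the symbols Htra1, Ecm1, Tgfbi, Thbs1, Sparc, Vcan, Lgals3 and Tgm2, and they make up 8 of the 21938 genes listed for each library. Htra1 and Ecm1 were picked for their high values in macrophages of MerTK KO mice, and Sparc for its high values in 2 of those libraries. The values of these 3 genes in any comparison with MerTK KO are therefore described without a test. All 8 members passed the filter on low values, which asked for at least 10 reads in at least 3 libraries, and Vcan passed with exactly 3.

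PyMT mammary tumour cells, a line of cells from mammary tumours of polyoma middle T transgenic mice, were injected into 2 mammary glands of C57BL/6 mice, and macrophages were sorted by flow cytometry 5 weeks later. In the first group, hosts lacking the receptor MerTK in macrophages carried unmodified tumour cells (labelled MerTK KO, 4 libraries). In the second, wild-type hosts carried tumour cells with a knockdown of Ptdss1, a phosphatidylserine synthase (3 libraries), and in the control group wild-type hosts carried unmodified tumour cells (3 libraries). The Cre driver, the knockdown construct, the age and sex of the mice, and whether each library is 1 mouse are not stated in the labels. The p-values therefore reflect variation among libraries that may include technical variation.

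Matricellular proteins are secreted into the extracellular matrix, where they tune adhesion, growth factor activity and matrix assembly rather than serve as its scaffold. In tumours they are made by fibroblasts, tumour cells and macrophages. MerTK is a receptor with which macrophages recognise phosphatidylserine, through bridging ligands, on dying cells.

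Levels are given as log2(normalised reads + 1), the scale on which the values were deposited, and the libraries held 10292592 to 25815071 reads. The knockout could not be seen in the reads of its own gene: Mertk was at 9.64 ± 0.74 (SD, n = 4) in the libraries labelled MerTK KO, at 8.89 ± 1.37 (SD, n = 3) in Ptdss1 knockdown and at 9.96 ± 0.90 (SD, n = 3) in control. Reads outside a deleted part of the gene would not check the deletion, and below, the group is named by its label. Ptdss1 was knocked down in tumour cells, so its macrophage level does not check that label. All 16 macrophage markers, among them Adgre1, Csf1r and Lyz2, had at least 10 reads in every library. Ptdss1 knockdown replicate 1 had no reads for many genes that the other libraries detected (10 reads or more for 6995 genes, against 9066 to 11523 elsewhere), and control replicate 2 had the 9066. A 0 in either library is weak evidence of absence.

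Promoter sequences are shown for Htra1 and Ecm1, the 2 genes picked for high values in MerTK KO, and for Sparc, whose high values coincided with fibroblast transcripts. Each runs 5′ to 3′ on the gene's strand, from 250 bases before to 50 bases after the gene start that RefSeq lists, in its sequence of GRCm38.p6. For Sparc that start lies inside the longer gene that GENCODE annotates, so its window does not flank the GENCODE start. The same holds for Lgals3, whose window was searched for motifs but is not shown. Htra1 lies at chr7:130935953-130936252 on the plus strand, Ecm1 at chr3:95739520-95739819 on the minus strand and Sparc at chr11:55420031-55420330 on the minus strand. Capitals mark an AP-1 motif (TGANTCA) or a TATA motif (TATAAA).
Htra1: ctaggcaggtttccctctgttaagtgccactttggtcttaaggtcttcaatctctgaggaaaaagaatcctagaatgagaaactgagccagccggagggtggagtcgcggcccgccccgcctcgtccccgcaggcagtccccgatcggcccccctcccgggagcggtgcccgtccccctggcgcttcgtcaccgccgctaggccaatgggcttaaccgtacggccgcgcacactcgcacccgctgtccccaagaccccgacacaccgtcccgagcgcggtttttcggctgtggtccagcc
Ecm1: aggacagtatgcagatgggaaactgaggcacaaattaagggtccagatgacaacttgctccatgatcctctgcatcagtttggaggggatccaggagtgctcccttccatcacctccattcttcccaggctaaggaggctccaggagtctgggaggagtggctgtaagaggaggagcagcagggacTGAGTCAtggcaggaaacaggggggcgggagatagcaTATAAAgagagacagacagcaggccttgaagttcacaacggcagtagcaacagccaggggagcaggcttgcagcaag
Sparc: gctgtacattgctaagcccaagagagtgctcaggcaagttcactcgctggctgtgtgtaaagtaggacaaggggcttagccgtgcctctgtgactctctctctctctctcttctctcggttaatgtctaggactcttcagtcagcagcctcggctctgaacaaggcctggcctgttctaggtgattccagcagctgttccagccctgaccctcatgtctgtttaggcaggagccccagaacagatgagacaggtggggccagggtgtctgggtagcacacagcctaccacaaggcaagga
The 3 windows differ in base composition. Htra1 has 28 CpG dinucleotides and a GC content of 65%, Ecm1 has 2 CpG and 54.7%, and Sparc has 4 CpG and 55.3%, where the median over 32851 mouse promoters is 7 CpG and 52.7%. Ecm1 holds TGAGTCA beginning 64 bases and TATAAA beginning 27 bases before the start. On either strand, 7.81% of all promoters hold an AP-1 motif and 13.6% a TATA motif. Neither motif was found in the windows of Htra1, Sparc, Tgfbi, Vcan or Lgals3, the other members in the table. The Htra1 window holds GAGGAA, the core bound by the myeloid factor PU.1, which 28.3% of promoters hold. It also holds a GC box (GGGCGG or its complement), held by 35.7% and found in Ecm1, Tgfbi, Vcan and Lgals3 too. Also searched were CACGTG, held by 7.15% of promoters and by no member, and the SMAD motif GTCTGNC, held by 15.2% and found in Ecm1 alone of the members. The matches in the Htra1 and Ecm1 windows did not overlap each other. These motifs were chosen after the sequences had been seen, and a match describes letters, not a bound site.

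**Figure D1:**
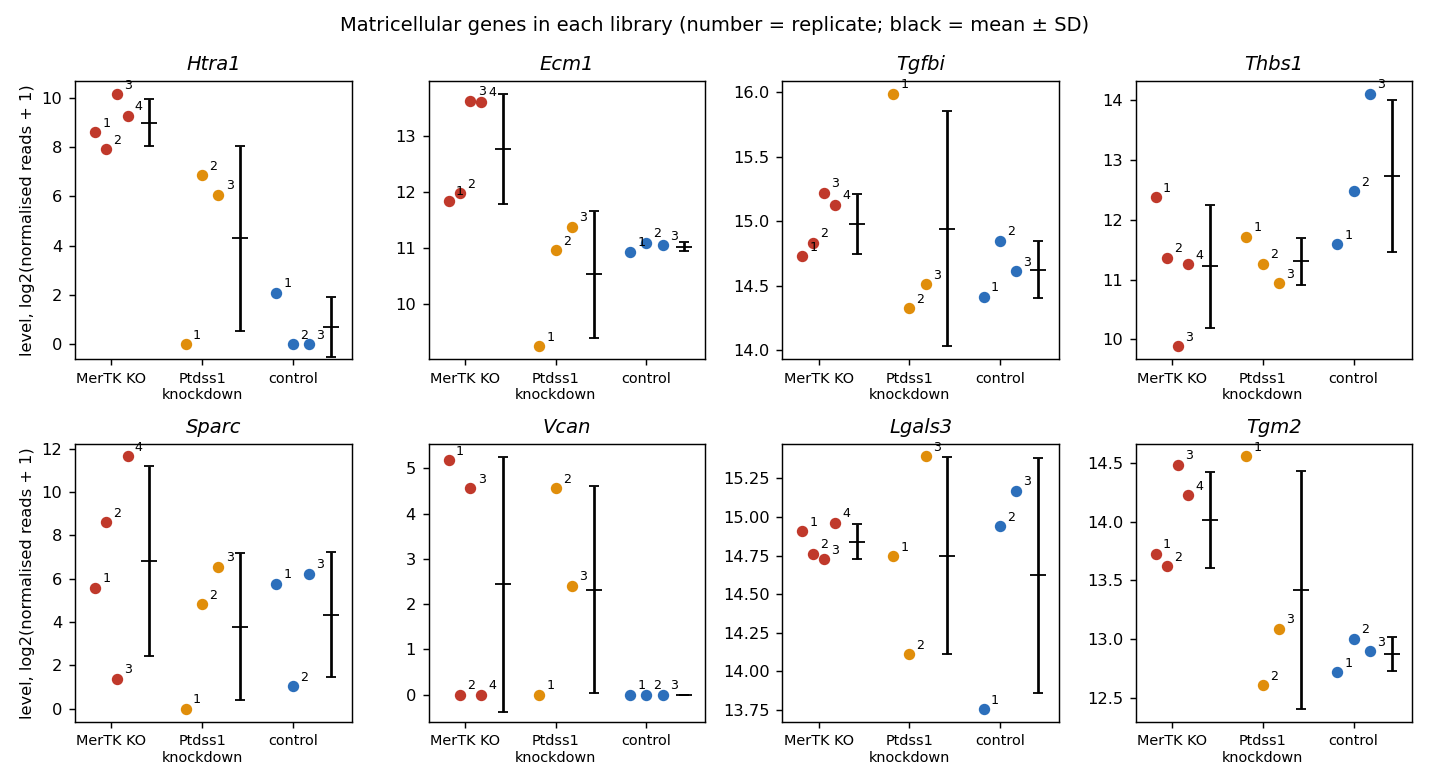
Level of each member in each library, on the log2(normalised reads + 1) axis, with 1 panel per gene, a separate vertical range per panel, and the replicate number beside each point. Black marks are the mean and SD of a group. Htra1, Ecm1 and Tgm2 have all 4 MerTK KO libraries above all 3 control libraries, as did 3.00% of all genes tested, while Sparc and Vcan are spread over most of their range within MerTK KO.

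Htra1, a secreted serine protease that cleaves matrix proteins and can restrain TGF-beta family signalling, was read in every MerTK KO library and almost not in control. Its level was 8.60, 7.92, 10.15 and 9.28 in MerTK KO replicates 1 to 4, from 264, 296, 1406 and 774 reads. In Ptdss1 knockdown it was 0, 6.87 and 6.07, from 0, 123 and 108 reads, and in control it was 2.09, 0 and 0, from 4, 0 and 0 reads. The 4 MerTK KO libraries lay above all others, and the Ptdss1 knockdown libraries in which it was read lay between them and control. In control replicates 2 and 3 a floor of 3 reads corresponds to levels of 2.05 and 1.68. The 0 reads there do not tell absence from a level below these. The gene lies on chromosome 7 from 130936111 to 130985660, plus strand, in GRCm38. The mean difference between MerTK KO and control was 8.29 (SE 1.86). With only 4 reads in all control libraries its size depends on the added constant, and it was 5.85 when 8 instead of 1 was added before the logarithm.

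Ecm1, a secreted glycoprotein that binds other matrix proteins, was read in all 10 libraries and was also highest in MerTK KO. It was at 11.84, 11.98, 13.63 and 13.62 in MerTK KO, at 9.24, 10.96 and 11.38 in Ptdss1 knockdown, and at 10.93, 11.09 and 11.05 in control. The MerTK KO libraries did not overlap either other group, and they fell into a lower pair (replicates 1 and 2) and a higher pair (replicates 3 and 4). Control libraries were close together, at 11.02 ± 0.09 (SD, n = 3), against 12.77 ± 0.99 (SD, n = 4) in MerTK KO. The difference was 1.74 (SE 0.57), and it lay between 1.46 and 2.05 when any 1 library was left out. Ecm1 lies on chromosome 3 from 95734147 to 95739569, minus strand.

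Tgm2, the transglutaminase that cross-links matrix proteins and is known as a marker of alternatively activated macrophages, was the other member with no overlap between MerTK KO and control. It was at 13.73, 13.62, 14.49 and 14.23 in MerTK KO, at 14.56, 12.61 and 13.09 in Ptdss1 knockdown, and at 12.71, 13.001 and 12.90 in control. Across all genes tested, 3.00% had every MerTK KO library above every control library. Of the 5 members whose rule names no measured value, only Tgm2 did. Its difference was 1.14 (SE 0.44, limma adjusted p = 1.0), so it did not pass over all genes, and it lay between 0.99 and 1.28 with any 1 library left out. As in Ecm1, MerTK KO replicates 3 and 4 were above replicates 1 and 2. Tgm2 lies on chromosome 2 from 158116402 to 158146436, minus strand.

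Thbs1, which encodes thrombospondin 1, a ligand of CD36 and CD47 and an activator of latent TGF-beta, had its highest values in control. It was at 12.38, 11.37, 9.88 and 11.25 in MerTK KO, at 11.72, 11.27 and 10.93 in Ptdss1 knockdown, and at 11.60, 12.48 and 14.11 in control. The groups overlapped, and control replicate 3, with 24244 reads, stood above every other library. The difference between MerTK KO and control was -1.51 (SE 0.60, limma adjusted p = 1.0), and -0.82 without control replicate 3. Across all genes tested, 2.62% had every MerTK KO library below every control library, and no member did. Thbs1 lies on chromosome 2 from 118111876 to 118127133, plus strand.

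Tgfbi and Lgals3 were the most abundant members and differed little between MerTK KO and control. Tgfbi, a TGF-beta-induced protein that binds integrins and collagen, was at 14.73, 14.83, 15.22 and 15.13 in MerTK KO, at 15.99, 14.33 and 14.51 in Ptdss1 knockdown, and at 14.41, 14.85 and 14.61 in control. Its groups overlapped, and its difference between MerTK KO and control was 0.35 (SE 0.40, limma adjusted p = 1.0). Lgals3, a galectin that binds glycans on cell surfaces and matrix and is abundant in macrophages, was at 14.91, 14.76, 14.73 and 14.96 in MerTK KO, at 14.75, 14.11 and 15.39 in Ptdss1 knockdown, and at 13.76, 14.94 and 15.17 in control. Control replicate 1 was its lowest library and the MerTK KO libraries lay inside the control range. The difference was 0.22 (SE 0.40, limma adjusted p = 1.0), and -0.21 without control replicate 1. Tgfbi lies on chromosome 13 from 56609523 to 56639562, plus strand, and Lgals3 on chromosome 14 from 47367751 to 47386160, plus strand.

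Vcan, the large chondroitin sulphate proteoglycan versican, which binds hyaluronan, was near the limit of detection. It had 24, 0, 28 and 0 reads in MerTK KO, 0, 24 and 7 reads in Ptdss1 knockdown, and 0 reads in every control library. Both libraries of MerTK KO in which it was read (replicates 1 and 3) were those with few fibroblast transcripts. It did not pass between MerTK KO and control (limma adjusted p = 1.0), and no fold change is given against a control group with 0 reads. Vcan lies on chromosome 13 from 89655312 to 89742509, minus strand.

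Over the 5 members open to a test between MerTK KO and control, 0 passed limma's adjusted p of 0.05 and 2 (Tgm2 and Thbs1) had an unadjusted p below 0.05. Over all 11564 genes, 2 passed, or 0.0173%, and 238 had an unadjusted p below 0.05. With limma-voom on the recovered reads, 0 of the 5 members and 2 genes in all passed.

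**Figure D2:**
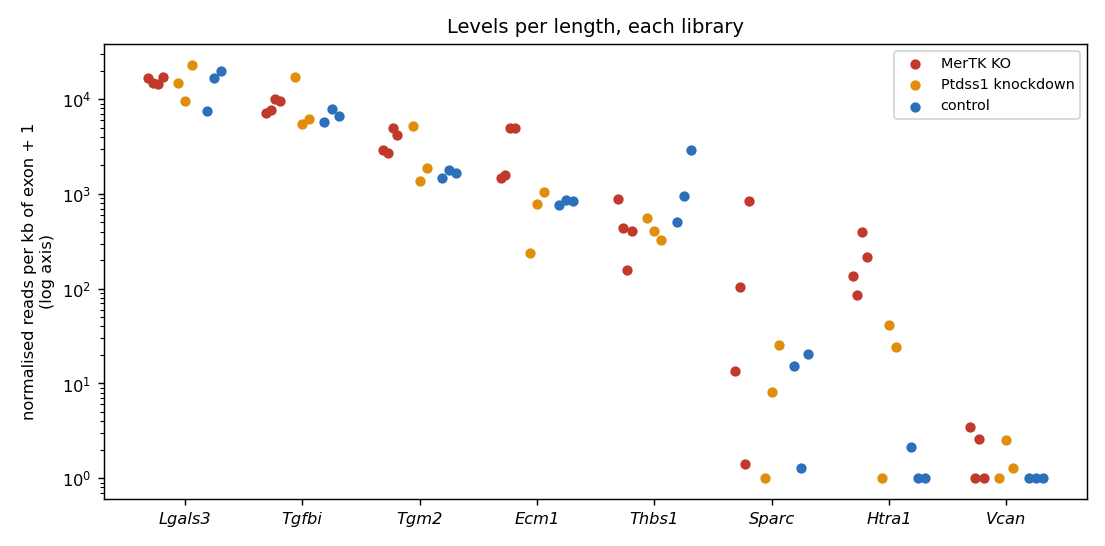
Normalised reads per kilobase of exon plus 1, on a log axis, for each member and library, ordered by the mean over all libraries, with MerTK KO left, Ptdss1 knockdown in the middle and control right. Lgals3, Tgfbi, Tgm2, Ecm1 and Thbs1 lie above 100 in every library, while Sparc and Htra1 reach down to 1, which stands for no reads.

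Per length of exon, the members covered 4 orders of magnitude in MerTK KO. Lgals3 averaged 15824 normalised reads per kb in MerTK KO, 15823 in Ptdss1 knockdown and 14731 in control. Tgfbi averaged 8643, 9620 and 6755 in the same groups, Tgm2 3704, 2826 and 1630, and Ecm1 3266, 694 and 826. These 4 genes were at the 94.0th percentile of all listed genes or higher in each group. Thbs1 averaged 467 in MerTK KO, 428 in Ptdss1 knockdown and 1457 in control, Sparc 241, 10.54 and 11.3, Htra1 207, 21.04 and 0.377, and Vcan 1.00, 0.619 and 0. Within MerTK KO, Lgals3 and Tgfbi, and Tgfbi and Tgm2, were further apart than their SDs, while Tgm2 and Ecm1 (SD 1056 and 2005 reads per kb), and Thbs1, Sparc and Htra1 (SD 300.0, 406 and 137), were not. By this measure Htra1 stood at the 86.8th percentile of listed genes in MerTK KO, the 61.5th in Ptdss1 knockdown and the 43.9th in control.

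Sparc, a collagen-binding glycoprotein made in quantity by fibroblasts, split the MerTK KO libraries. It was at 5.58, 8.62, 1.39 and 11.65 in MerTK KO, from 32, 480, 2 and 4000 reads, at 0, 4.82 and 6.55 in Ptdss1 knockdown, and at 5.77, 1.03 and 6.23 in control. Replicates 2 and 4 exceeded every other library, and replicates 1 and 3 lay within the control range. The difference between MerTK KO and control was 2.47 (SE 2.35) over all libraries. It was 0.81 when control replicate 2 was left out, 0.85 when MerTK KO replicate 4 was, and -0.86 when both MerTK KO libraries with high Sparc were. Sparc lies on chromosome 11 from 55394500 to 55423183, minus strand.

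The summed fibroblast transcripts split the same libraries in the same way. The summed level of 17 fibroblast markers was 35.2, 1571, 35.6 and 4450 normalised reads in MerTK KO replicates 1 to 4, 71.1, 385 and 58.2 in Ptdss1 knockdown, and 134, 18.8 and 94.3 in control. Of the 17 markers, 1, 10, 1 and 8 had at least 10 reads in the MerTK KO libraries, 1, 6 and 4 in Ptdss1 knockdown, and 5, 1 and 6 in control. Among defining markers in MerTK KO replicates 1 and 3, Col3a1 and Dcn had 0 reads in both and Col1a1 had 1 and 2 reads, against 97 and 495 reads of Col1a1 in replicates 2 and 4. Not every marker followed the split. Fap had 10, 34, 32 and 0 reads in MerTK KO replicates 1 to 4, and Thy1 had 5, 0, 0 and 0. Of the defining markers, Col1a2 had 0, 0, 0 and 2 reads and Pdgfra had 0, 10, 0 and 0. Col3a1 had 7 and 35 reads in replicates 2 and 4, against 179 in Ptdss1 knockdown replicate 2, where Col1a2 had 94. Some other matricellular genes followed this split, and others did not. Sparcl1, a Sparc relative, had 159 and 624 reads in replicates 2 and 4 and 0 in the other 8 libraries. Fbln2, a fibulin, had 401 and 1034 reads in replicates 2 and 4 and at most 3 in any other library. Postn, which encodes periostin and is one of the 17 markers, had 614 reads in replicate 2, 0 in replicate 4 and at most 5 elsewhere. In MerTK KO replicates 1 to 4, Efemp2 had 124, 180, 3 and 1800 reads and Mfge8 had 306, 326, 2 and 785. Tnc had 2, 78, 3 and 0 reads there. In bulk libraries, more fibroblasts and more RNA per fibroblast cannot be told apart. The keratin genes Krt8 and Krt18, markers of epithelial and tumour cells, were also highest within MerTK KO in replicates 2 and 4. Krt8 had 69, 83, 1 and 1535 reads in replicates 1 to 4, and Krt18 had 0, 52, 0 and 647. Other markers of these cells, Cdh1 and Spint2, had most reads in replicate 3, with 1849 and 77. The part of tumour cell transcripts in the Sparc reads was not tested.

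**Figure D3:**
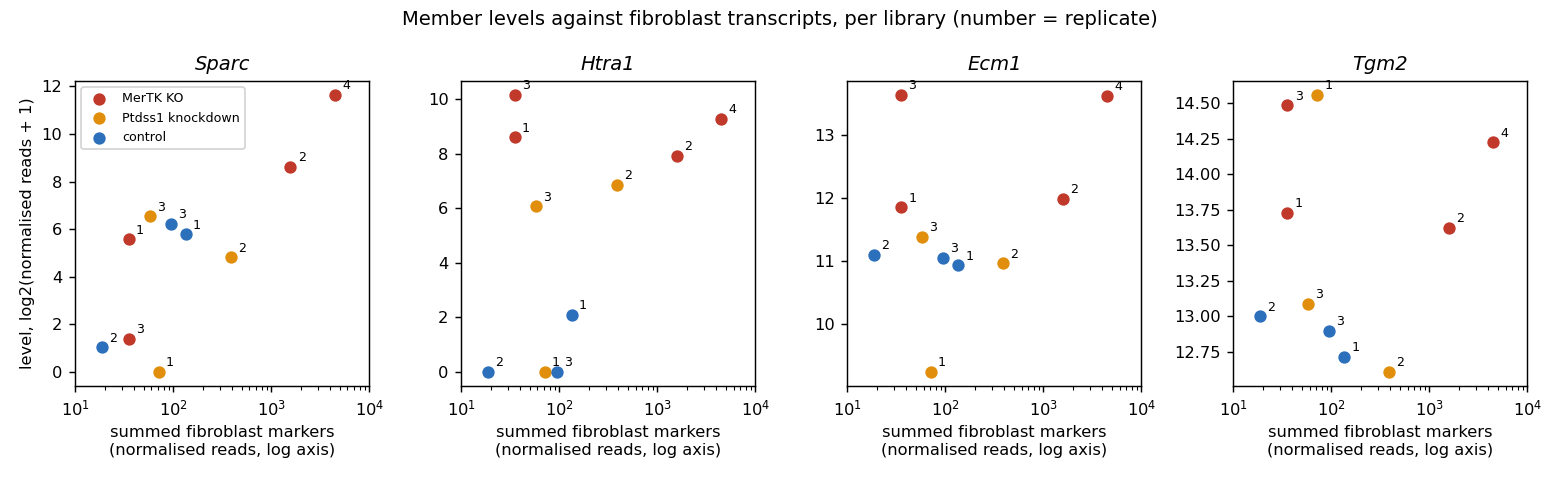
Level of Sparc, Htra1, Ecm1 and Tgm2 (log2 of normalised reads + 1) against the summed level of 17 fibroblast markers in the same library (normalised reads, log axis), with the replicate number beside each point. Sparc is highest in the 2 MerTK KO libraries with the highest marker sums (1571 and 4450), while Htra1 is highest in MerTK KO replicate 3, with a marker sum of 35.6.

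Htra1, Ecm1 and Tgm2 were high in both pairs of MerTK KO libraries. Htra1 had its most reads, 1406, in MerTK KO replicate 3, where Sparc had 2 reads and the fibroblast sum was 35.6. That library also had the highest sum of 8 monocyte markers in MerTK KO, 34733 normalised reads, against 8333, 6437 and 6623 in replicates 1, 2 and 4. Chil3 and Ccr2 gave 27934 and 9952 of its 42901 monocyte marker reads, and 5 of the 8 markers had at least 10 reads. Cd209a, a dendritic cell marker, had 9573 reads there, against 0, 30 and 0 in replicates 1, 2 and 4. MerTK KO replicates 1 and 3 alone exceeded control by 8.68 for Htra1, 1.71 for Ecm1 and 1.24 for Tgm2, against 7.90, 1.78 and 1.05 for replicates 2 and 4. The pair with many fibroblast transcripts differed from the pair with few by 6.65 for Sparc, -0.78 for Htra1, 0.06 for Ecm1 and -0.18 for Tgm2. With 2 libraries a side, these splits are values without a test, and Htra1 and Ecm1 were chosen for their MerTK KO values. The part of fibroblast transcripts in the values of Htra1, Ecm1 and Tgm2 was not tested.

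The epithelial and tumour cell list was the only marker list whose sum in every MerTK KO library exceeded every control library. The fibroblast sums of these groups overlapped. The summed level of 11 epithelial and tumour cell markers was 1049, 1025, 1560 and 2724 normalised reads in MerTK KO, 5.20, 789 and 967 in Ptdss1 knockdown, and 513, 325 and 585 in control. Between 2 and 5 of the 11 markers had at least 10 reads in MerTK KO, 0 to 8 in Ptdss1 knockdown and 2 to 5 in control, and Epcam had 0 reads in every MerTK KO and control library. Cdh1, the E-cadherin gene, which macrophages can also express, gave 612, 1060, 1849 and 1218 of the 715, 1255, 1927 and 3401 reads of the list in MerTK KO. In control Cdh1 gave 399, 299 and 587 of the 631, 311 and 800 reads of the list. Krt8, a keratin, had 1535 reads in MerTK KO replicate 4 and 69, 83 and 1 in replicates 1 to 3, against 54, 0 and 98 in control. Of the 6 markers of the list that were tested, 1, Cdh1, had every MerTK KO library above every control library, as did 3.00% of all genes tested. The higher sums therefore do not show more epithelial or tumour cells in each MerTK KO library. The list was not summed without Cdh1. The summed markers of pericytes, endothelial cells, platelets, neutrophils, monocytes, dendritic cells, T and NK cells and B cells overlapped between MerTK KO and control. Those of T and NK cells were 3.24 to 533 normalised reads in MerTK KO and 412 to 2822 in control, and those of monocytes 6437 to 34733 and 1756 to 10620. The part of these transcripts in the values of Htra1, Ecm1 and Tgm2 was not tested.

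In Ptdss1 knockdown against control, a comparison that shares its control libraries with the one that chose Htra1 and Ecm1, no member passed. Over all 11564 genes 0 passed (0%), with 335 at an unadjusted limma p below 0.05 and 0 by limma-voom. Htra1 was higher in 2 of 3 Ptdss1 knockdown libraries than in any control library, by 3.62 on average (SE 1.99, limma adjusted p = 0.841), with 0 reads in replicate 1, the library that missed many genes. Its difference was 5.77 without that library and 2.34 without Ptdss1 knockdown replicate 2. Thbs1 differed by -1.42 (SE 0.64, limma adjusted p = 0.841), and by -0.73 without control replicate 3. It was the single member of 8 with an unadjusted p below 0.05. The other members with reads in control differed by -0.56 (Sparc, SE 2.51) to 0.55 (Tgm2, SE 0.47), and neither these 5 members nor Vcan passed. Among all genes, 3.32% had every Ptdss1 knockdown library above every control library and 3.60% below, and 0 of the 8 members had either.

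Ptdss1 knockdown replicate 1 set the direction of several of these values. Tgfbi and Tgm2 were at 15.99 and 14.56 there, their highest of all 10 libraries, and Ecm1 at 9.24, its lowest. Without that library the difference from control was -0.21 for Tgfbi, -0.02 for Tgm2 and 0.14 for Ecm1, against 0.32, 0.55 and -0.50 with it.

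Between MerTK KO and Ptdss1 knockdown, Htra1 and Ecm1 were again higher in every MerTK KO library, by 4.68 and 2.24. That pattern is a description, since these genes were chosen on MerTK KO, and 2.91% of all genes had every MerTK KO library above every Ptdss1 knockdown library, with 2.32% below. None of the 5 members open to a test passed or lay apart, and 0 of the 5 had an unadjusted limma p below 0.05. Over all genes 0 passed (0%), with 431 at an unadjusted p below 0.05 and 0 by limma-voom. Tgm2 differed by 0.60 (SE 0.44, limma adjusted p = 0.805), and Tgfbi by 0.04 (SE 0.40), Lgals3 by 0.09 (SE 0.40) and Thbs1 by -0.09 (SE 0.60). Vcan, from 0 to 28 reads, differed by 0.12 (SE 1.76). Without Ptdss1 knockdown replicate 1, Htra1 differed by 2.52 and Ecm1 by 1.60, and with array weights by 2.21 and 0.94.

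**Figure D4:**
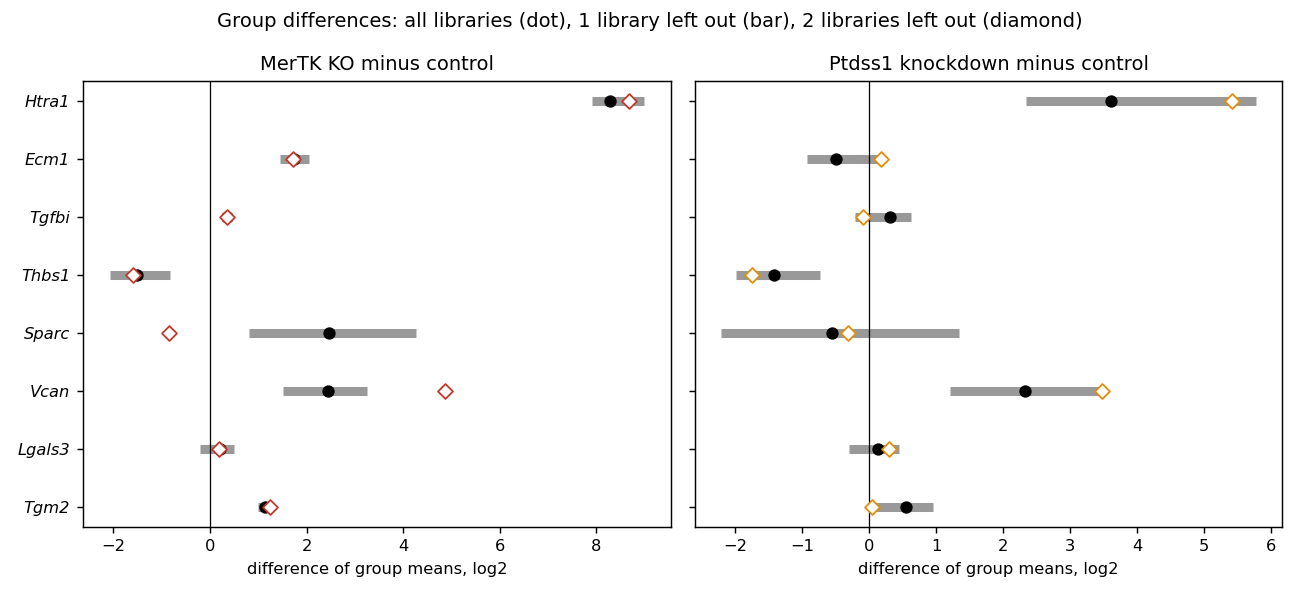
Difference of group means (log2) for each member, with all libraries (dot), the range with any 1 library left out (bar), and with 2 libraries left out (diamond): MerTK KO replicates 2 and 4 on the left, control replicate 2 and Ptdss1 knockdown replicate 1 on the right. In MerTK KO minus control, the diamond of Sparc is at -0.86 and its dot at 2.47, while the diamonds of Htra1 and Ecm1, at 8.68 and 1.71, are close to their dots.

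Related genes were counted by function, in lists drawn up with earlier results of these data known. Of 35 other matricellular genes, 7 could be tested between MerTK KO and control, and 2 rose: Spp1, which encodes osteopontin, by 3.23 (SE 0.51) and Fn1, which encodes fibronectin, by 2.23 (SE 0.35), at limma adjusted p = 0.0317 for either gene. The median of the 7 was 1.00, beside 0.02 over all genes. Neither gene passed when control replicate 1, 2 or 3 or MerTK KO replicate 1, 2 or 3 was left out, without a filter or with a filter of 50 reads, and Fn1 was also lost without MerTK KO replicate 4 or Ptdss1 knockdown replicate 3. Neither passed when control replicate 2 and Ptdss1 knockdown replicate 1 were left out together, and Spp1 alone passed without MerTK KO replicates 2 and 4. Both genes were already known to be high in these samples and are not independent evidence of the list's direction. Ecm2, a matrix protein with leucine-rich repeats, differed by -3.68 (SE 1.78) and Emilin2, an elastin microfibril protein, by 1.00 (SE 0.50), without passing (limma adjusted p = 1.0 for each). Spp1 had its highest level, 17.54, in MerTK KO replicate 3, the library in which Htra1 and Tgm2 were highest within that group.

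No partner of the members passed between MerTK KO and control. Of the 3 other HtrA proteases, none passed, with Htra2, a mitochondrial protease, at -0.55, Htra3 at 0.42 and Htra4 at 0.25 between MerTK KO and control, where Htra1 was at 8.29. Htra3 and Htra4 had only 24 and 0 reads in control replicate 2, a library that missed many genes. In control replicates 1 and 3, Htra3 was at 8.43 and 8.34, above its range of 6.80 to 7.94 in MerTK KO, and Htra4 was at 5.94 and 6.32. The 5 other galectins tested and Lgals3bp, a galectin-binding glycoprotein counted with them, had positive differences (median 0.58) and none passed, with Lgals1 at 0.97. Of 7 matrix cross-linking enzymes tested of 14, none passed and 5 were positive (median 0.59), among them F13a1, the factor XIII transglutaminase of macrophages, at 2.10, and Loxl3, a lysyl oxidase, at 2.00. Of 4 versican and hyaluronan partners tested of 17, none passed (median -0.11), and Cd44, the hyaluronan receptor, differed by 0.14.

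Receptors and signalling genes gave no calls either. Of 24 receptors, 22 were tested, 15 were positive and none passed (median 0.31). Sdc1, which encodes the heparan sulphate proteoglycan syndecan 1, was at 7.97, 6.09, 6.66 and 7.91 in MerTK KO, at 0, 5.37 and 4.64 in Ptdss1 knockdown, and at 0, 0 and 4.32 in control. Every MerTK KO library was above the others, but Sdc1 did not pass (difference 5.72, SE 1.87, limma adjusted p = 1.0). Lrp1, an endocytic receptor for thrombospondin 1, differed by 1.11, Stab1, a scavenger receptor that takes up Sparc, by 0.93 and Itgb1, an integrin chain, by 0.63. Of 25 TGF-beta ligands, latency and signalling genes, 22 were tested, 12 were positive and none passed (median 0.06). Tgfbr1, the type I receptor, differed by -1.33 (SE 0.57, limma adjusted p = 1.0) and Smad6, an inhibitor, by -1.69. In the other 2 comparisons no gene of these lists passed.

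**Figure D5:**
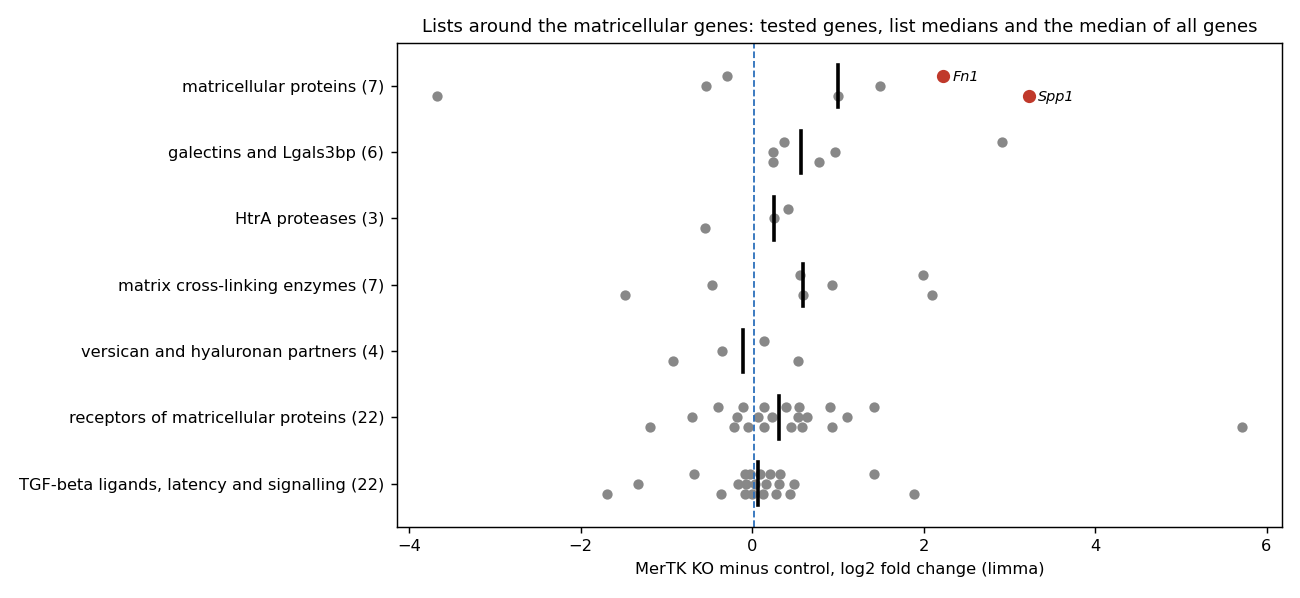
Log2 fold change, MerTK KO minus control, of each tested gene in 7 lists (number tested in brackets), with list medians as black bars and the median of all genes, 0.02, as a dashed line. Red points, Spp1 and Fn1, passed limma's adjusted p of 0.05.

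The genes whose levels followed a member most closely are named as a description, by Pearson r over the 10 libraries, which share a group structure and differ in depth. For Htra1 they were Zfp236 (r = 0.93), Chml (0.92), Pdlim1 (0.90) and Anxa2 (0.89). For Ecm1 they were Hbegf (0.95), an EGF family growth factor, Nfx1 (0.94), Ext2 (0.91) and Ofd1 (0.90). For Sparc they were Hspb1 (0.97), Smarcd3 (0.94), Efemp2 (0.91), itself a fibulin family gene, and Exd2 (0.90), and for Tgm2 they were Ctsd (0.96), which encodes cathepsin D, Il4ra (0.95), the interleukin 4 receptor chain, Fcrlb (0.93) and Os9 (0.92). Without control replicate 2 and Ptdss1 knockdown replicate 1, the same rule named 0 of the 4 genes again for Htra1, Ecm1 and Sparc and 1 of 4, Il4ra, for Tgm2.

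Among the members themselves, Htra1 and Ecm1 had r = 0.79 and Tgfbi and Tgm2 r = 0.87 over the 10 libraries. Since Htra1 and Ecm1 were both picked for high values in MerTK KO, their r follows in part from that choice. Htra1 and Sparc had r = 0.45, and Htra1 and Thbs1 r = -0.65. Over the 8 libraries without the pair that missed the most genes, Ecm1, Tgfbi and Tgm2 ran together, with r = 0.96 for Ecm1 and Tgfbi, 0.97 for Tgfbi and Tgm2, and 0.96 for Ecm1 and Tgm2. Over all 10 libraries Ecm1 and Tgfbi had r = -0.10, so that likeness depended on the libraries left out.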

How the data were processed

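RNA of sorted macrophages was copied and amplified by 16 PCR cycles and sequenced in 75-cycle single reads, per the labels' protocols, with kits that mark neither strand nor molecules. STAR, RSEM and mm10 are named in the submitters' processing notes, without versions. Each deposited table holds values whose unit is not stated; undoing log2(value + 1) gave whole reads for 100% of values in every library (tolerance 0.01), so the authors' values were read as log2 of reads over a size factor plus 1. Gene positions are from GENCODE M21 on GRCm38. Reads of overlapping or antisense genes cannot be told apart.

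All 10 libraries entered 1 limma 3.58.1 fit (trend, robust, R 4.3.3) with a mean per group, on the 11564 genes with at least 10 reads in at least 3 libraries. Tests were two-sided, with Benjamini-Hochberg adjusted p below 0.05 over all genes. The fit was tested on simulated data. Comparisons with a shared group are not independent. Reads without molecular identifiers are not independent molecules, so the floor of 3 reads covers counting error only.

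The members and lists were chosen with earlier results of these data known. The genes named were the 8 members, up to 4 genes per list by smallest unadjusted p between MerTK KO and control, any list gene past the threshold, defining markers, and per member the 4 most correlated genes with a mean log2 value of at least 5. Sparcl1, Fbln2, Postn, Mfge8, Tnc, Cdh1, Cd36, Fap, Thy1, Krt18, Spint2, Chil3 and Cd209a were named after their values were seen. Alternatives were other size factors, no filter, 50 reads, a constant of 8, limma-voom, array weights, only the compared groups, and leaving out libraries.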

Additional observations from a re-analysis of the deposited data

How the results depend on the processing

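Of the alternatives run for the members' differences, 420 were counted as the same, 30 reversed and 3 moved beyond the spread without reversing. For tested differences, the same meant an unchanged direction and side of the threshold. For Htra1, Ecm1 and Sparc in comparisons with MerTK KO it meant only a change below the within-group SD. Sparc was thus counted as the same despite reversals. Its lowest alternative was -0.86 against 2.47 for MerTK KO minus control, and -0.30 against 3.02 for MerTK KO minus Ptdss1 knockdown. The number of genes called between MerTK KO and control, 2, became 0 without a filter, 0 with a filter of 50 reads, 25 with array weights and 1 without MerTK KO replicates 2 and 4, and ran between 0 and 4 with any 1 library left out. Array weights gave 2 calls between Ptdss1 knockdown and control and 35 between MerTK KO and Ptdss1 knockdown, and leaving out control replicate 2 with Ptdss1 knockdown replicate 1 gave 1 between MerTK KO and Ptdss1 knockdown. With array weights, Ptdss1 knockdown minus control became 0.26 for Ecm1, -0.036 for Tgfbi and 0.43 for Sparc, and MerTK KO minus Ptdss1 knockdown became 0.58 for Thbs1, -0.85 for Vcan and -0.21 for Lgals3. With limma-voom Vcan was at -0.094 in that comparison. Without control replicate 2 and Ptdss1 knockdown replicate 1, Ptdss1 knockdown minus control was 0.18 for Ecm1 and -0.095 for Tgfbi, and MerTK KO minus Ptdss1 knockdown 0.12 for Thbs1 and -1.04 for Vcan. With any 1 library left out, Ptdss1 knockdown minus control ran from -0.93 to 0.14 for Ecm1, from -0.21 to 0.62 for Tgfbi, from -2.21 to 1.34 for Sparc, from -0.30 to 0.45 for Lgals3 and from -0.023 to 0.95 for Tgm2. MerTK KO minus Ptdss1 knockdown ran from -0.27 to 0.56 for Tgfbi, from -0.47 to 0.36 for Thbs1, from -1.04 to 1.23 for Vcan and from -0.23 to 0.41 for Lgals3, and MerTK KO minus control from -0.21 to 0.49 for Lgals3. None of these values had passed the threshold, and the cause was not tested. A filter of 50 reads left no value for Vcan. No paired analysis was possible because the labels give libraries no replicate numbers shared across groups. Depth limits how low Htra1 can be read in control, where a floor of 3 reads corresponds to levels of 1.68 to 2.05. It limits Vcan everywhere.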

Other observations

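Htra4, an HtrA protease close to Htra1 in domain structure, had 21, 50, 153 and 0 reads in MerTK KO, 1384, 9 and 363 in Ptdss1 knockdown, and 74, 0 and 108 in control, so its libraries with most reads were not those of Htra1. Htra2 had 7573 reads in Ptdss1 knockdown replicate 1, against 199 to 1089 in the other 9 libraries.

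Cd36, the scavenger receptor bound by thrombospondin 1, had 111, 26, 2350 and 1 reads in MerTK KO, 6, 621 and 1391 in Ptdss1 knockdown, and 324, 0 and 161 in control. MerTK KO replicate 3, the library with most Htra1 and least Thbs1 within its group, had the most.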
